A study of Mus musculus with 16 samples.

Results

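The genes described are 42 subunits of the 4 families of ATP-dependent chromatin remodelling complexes (BAF, ISWI, CHD and INO80), taken as a list of symbols. All 42 were found among the 24421 genes of each of the 3 expression tables. By role, 2 are BAF ATPases, 13 are subunits shared between BAF complexes, 5 belong to canonical BAF, 4 to PBAF and 1 to non-canonical BAF, 2 are ISWI ATPases, 4 are their partner subunits, 8 are CHD ATPases and 3 are ATPases of the INO80 family. They were followed by RNA-seq in C57BL/6 mouse embryos labelled KO or WT, in a study whose title concerns the microRNA miR-302 and neural crest development. At embryonic day 7.5 (E7.5) whole embryos were used, with 2 KO and 2 WT libraries. At E8.5 cells sorted for the neural crest driver Wnt1-Cre were used, with 4 KO and 3 WT libraries, and at E9.5 cells sorted as Sox10-positive were used, with 2 KO and 2 WT libraries. Wnt1-Cre also marks the dorsal neural tube from which the crest leaves. A further E8.5 KO library, named KO4_5s, came without normalised values and was not analysed here. Its tag 5s is shared by WT1_5s, a WT library that was analysed, as is its code number. The labels do not say which allele was made, nor whether libraries of a group came from separate litters, so p-values measure the spread between these libraries, which may be technical.

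Chromatin remodellers are machines that use ATP to slide, eject or exchange nucleosomes. Each is built round an ATPase of the SNF2 type, and the other subunits decide where it acts. BAF complexes carry Smarca4 (BRG1) or Smarca2 (BRM), and their makeup changes as pluripotent cells become committed cells and neurons, when a subunit is replaced by a paralog. ISWI remodellers space nucleosomes, CHD remodellers include Chd4 of the NuRD repressor, and INO80 family remodellers exchange the histone variant H2A.Z. Several are tied to the neural crest: in humans, loss of CHD7 causes CHARGE syndrome, and BAZ1B lies in the region deleted in Williams syndrome. MiR-302 is a microRNA of pluripotent cells, and SMARCC2 (BAF170) has been described as a miR-302 target in human embryonic stem cells.

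The miR-302 sequences and the matches to them in remodeller transcripts are shown so that the letters searched for, and the subunits that hold them, can be seen. The 3 mature miR-302 forms below come from RefSeq (GRCm38.p6) and lie on the plus strand of chromosome 3, at 127545275 to 127545297, 127545406 to 127545427 and 127545665 to 127545687 in the order given. Capitals mark bases 2 to 8, the seed with which a microRNA pairs to its targets.
mmu-miR-302b-3p: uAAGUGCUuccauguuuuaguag
mmu-miR-302c-3p: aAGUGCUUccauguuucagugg
mmu-miR-302d-3p: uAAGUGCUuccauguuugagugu
The RefSeq entry of miR-302c-3p begins a base later, so its bases 2 to 8 are shifted against the other 2 forms. Reads were found over the miR-302a to miR-302d hairpin genes in neither KO library at E7.5 (0 and 0 reads), against 14 and 25 reads in the WT libraries. At E8.5 and E9.5 a single read was counted over them at each stage, in a WT library, so they give no check of the genotype there. Mir367, of the same cluster, had 1 and 1 read in the E7.5 KO libraries against 0 and 3 in the WT libraries, and a single read in KO2 at E8.5.

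The longest annotated 3′ untranslated region of each gene (GENCODE M21, GRCm38) was searched on its sense strand for AGCACTT, for GCACTTA, and for AGCACTTA, which contains both. Of the 42 members 8 (19.0%) held at least 1 match, against 18.2% of 19511 genes, and 1 member, Smarcc2, held the longest, AGCACTTA, against 3.08% of genes. A match is a run of letters and not a measured site. In the stretches below, written 5′ to 3′ on the transcript strand, the match is in capitals.
Smarcc2, chr10:128489800-128489829, plus strand: caagtttgaaaAGCACTTAagcacctactt
Smarcc1, chr9:110239708-110239736, plus strand: aaattgactccAGCACTTgccttctcccc
Actl6a, chr3:32726766-32726794, plus strand: ttccttgaaatGCACTTAttcttattaca
Arid2, chr15:96404779-96404807, plus strand: gtgctctgttgGCACTTAataaattttaa
Bcl7a, chr5:123357059-123357087, plus strand: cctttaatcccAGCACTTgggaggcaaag
Chd2, chr7:73429609-73429637, minus strand: ggaagtcatcaAGCACTTgggcgttctgc
Chd2, chr7:73429501-73429529, minus strand: gcagctgaaggAGCACTTgaaggagtcgg
Chd6, chr2:160948422-160948450, minus strand: ggtaatcgctcAGCACTTgctagattctg
Ino80, chr2:119374179-119374207, minus strand: tggttggtgtgAGCACTTttatcacctgt
The Smarcc2 match begins at base 839 of a region of 1200 bases, and the Smarcc1 match at base 1937 of 2396. The 2 matches of Chd2 begin at bases 41 and 149 of 3029.

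Depth ran from 4912827 to 14861728 reads per library, and the members together took 0.163% to 0.472% of a library's reads. Values below are the authors' normalised read counts, and log2 fold changes are KO over WT on the scale log2(value + 1), tested by limma over all genes with a mean of at least 10. A gene is said to be called, or to have risen or fallen, where its adjusted p was under 0.05. The sort markers were present in every library: Wnt1 had 313, 548, 1094 and 603 normalised reads in E8.5 KO cells and 503, 543 and 541 in WT cells, and Sox10 had 511 and 1165 in E9.5 KO cells and 722 and 639 in WT cells. Summed markers of other cells differed between KO and WT libraries, though limma called none of the tested markers at E7.5 or E8.5. The summed level of 9 primitive erythroid genes was 16925, 26356, 14.4 and 1091 in E8.5 KO cells against 6.77 to 7.82 in WT cells, and 273763 and 299 in E9.5 KO cells against 8.10 and 18.7 in WT cells. In these lists the adult globins Hba-a1 and Hba-a2 were at 0 in every E8.5 and E9.5 library. The 6 macrophage markers summed to 109 and 211 in E9.5 KO cells and were all at 0 in E9.5 WT cells, while the 11 crest and neural tube markers summed to 2133 and 3145 in KO cells and 4676 and 4795 in WT cells. At E7.5 the 8 trophoblast markers summed to 29014 and 51668 in KO embryos against 10406 and 6093 in WT embryos. The 7 decidual markers summed to 6163 and 6058 in KO embryos against 8217 and 17551 in WT embryos. Most of that KO sum was Prl8a2, with 5952 and 5925 in KO embryos and 6897 and 294 in WT embryos. Of the 7 decidual genes 1, Prl8a2, had a positive log2 fold change and 6 a negative log2 fold change. In bulk RNA, fewer cells of a type and less RNA per cell cannot be told apart. Of the tested markers at E9.5, 2 of 7 erythroid, 3 of 4 macrophage, 2 of 3 decidual and 1 of 5 neuronal genes were called higher in KO cells. The 1 epiblast and streak gene tested, Nanog, was also called higher. In the crest and neural tube list 3 of 10 genes were called lower, and the 1 trophoblast and 1 endothelial gene tested were not called. Over all genes 24.5% were called higher and 23% lower. The part of these markers in the results below was not tested.

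Per length, as RPKM (reads scaled to the library total and to the kilobases of the longest transcript), the small shared subunits of BAF were the most abundant. Actl6a, the actin-related subunit of dividing cells, led in WT at every stage, with 154 ± 0.519 RPKM in KO embryos and 152 ± 8.55 in WT embryos at E7.5 (SD, n = 2 each). It had 204 ± 11.2 in KO cells (n = 4) and 189 ± 10.1 in WT cells (n = 3) at E8.5, and 121 ± 20.7 in KO cells and 203 ± 6.83 in WT cells at E9.5 (n = 2 each). In E9.5 KO cells Bcl7c, at 150 RPKM, stood above it. Scaling to total reads, as RPKM does, moved the median log2 fold change of all genes at E9.5 to -1.01. In normalised reads Actl6a had 2792 and 3990 in E9.5 KO cells and 3083 and 2982 in WT cells. Smarce1 and Smarcb1, the HMG-box and SNF5 core subunits, came next in WT libraries at every stage, and their WT values at E7.5, 71.8 ± 2.58 and 71.2 ± 39.7 RPKM, did not differ beyond their spread. At the other end stood Actl6b, the neuronal counterpart of Actl6a, with no read in any WT library. Over the KO libraries it had 9 reads at E8.5, 2 reads at E9.5 and 0 at E7.5. The next lowest in WT were Chd3 and Dpf1 at E7.5 (0.533 ± 0.391 and 1.01 ± 0.178 RPKM). In the sorted cells they were Dpf3 and Ino80, with 0.0341 ± 0.00159 and 0.663 ± 0.0696 RPKM at E8.5 (n = 3). Dpf3 had 1 read in each E8.5 WT library, so its SD there reflects the depths alone. At E9.5 Dpf3 and Ino80 had 0.238 ± 0.0336 and 0.825 ± 0.405 RPKM. Of the alternative ATPases, Smarca4 exceeded Smarca2 in WT at E9.5 (44.5 ± 3.40 against 8.09 ± 0.0609 RPKM), and Smarca5 exceeded Smarca1 (90.1 ± 9.45 against 3.31 ± 1.25 RPKM).

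**Figure D1:**
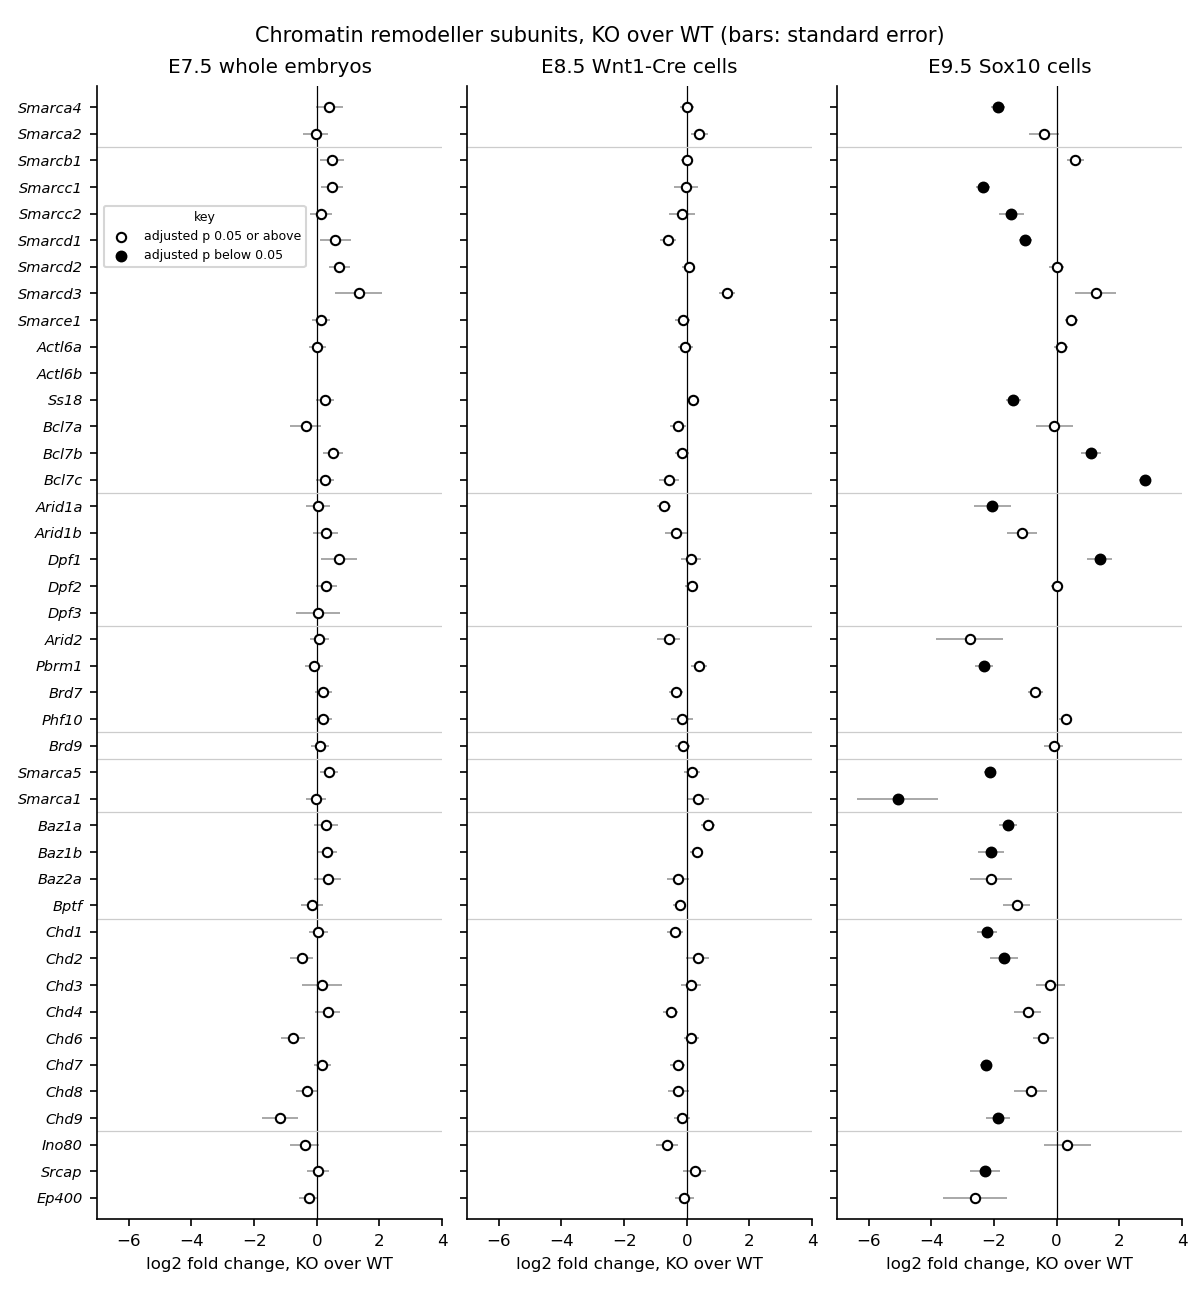
Log2 fold change (KO over WT) of each remodeller subunit by stage, with the standard error as a bar. Filled points have a limma adjusted p below 0.05, and grey lines separate the roles; no member was called at the 2 earlier stages, and at E9.5 19 were, 16 of them lower in KO.

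At E7.5 no remodeller subunit passed the test. Of the 41 members tested (Actl6b had no read), 0 were called by limma at an adjusted p under 0.05, as were 0% of 12492 genes. At an unadjusted p under 0.05 there were also 0 members, against 3.08% of all genes. EdgeR likewise called 0 genes. DESeq2 called 0.168% of genes higher and 0.104% lower, and 0 members. The authors' deposited table of higher genes at E7.5 lists 10 members among 3369 genes, 4 of them among its 1701 genes with an adjusted p under 0.05. Its means mostly differ from those of the normalised reads used here, so its values are not given. The members' median log2 fold change was 0.17, against -0.01 over all tested genes, and 30 of 41 lay above 0, against 48.9% of all genes. That median turned to -0.02 without WT2, a library in which the members were low as a group: they took 0.346% and 0.318% of reads in KO embryos, 0.334% in WT1 and 0.252% in WT2.

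Among single genes at E7.5, Smarcd2, a shared BAF subunit, had 693 and 792 normalised reads in KO embryos and 597 and 340 in WT embryos, a log2 fold change of 0.72 ± 0.34 (SE). Its paralog Smarcd3 had 22.3 and 43.3 in KO embryos and 21.1 and 6.28 in WT embryos, or 1.34 ± 0.75. KO embryos lay above WT embryos for both genes, and in both WT2 was the low library. Bcl7b, a small shared subunit, had 186 and 246 in KO embryos against 169 and 132 in WT embryos, and Smarcc1, a BAF scaffold, had 1603 and 1482 in KO embryos against 1509 and 802 in WT embryos, where KO2 lay inside the WT range. On the other side, Chd9, a CHD ATPase of the same subfamily as Chd7, had 98.8 and 31.3 in KO embryos and 103 and 156 in WT embryos, a log2 fold change of -1.17 ± 0.57. Chd6, also of that subfamily, had 255 and 173 in KO embryos and 275 and 470 in WT embryos, or -0.77 ± 0.38. For Chd6 and Chd9 both KO embryos lay below both WT embryos. Each of these 6 genes had a limma adjusted p of 1. The groups did not overlap, with KO higher, for 11 members (26.8%, against 16.1% of all genes), and with KO lower for 5 (12.2%, against 12.7%).

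At E8.5 the remodeller subunits again gave no call under limma, and Smarcd3 stood apart. Of 40 members tested (Actl6b and Dpf3 were below the minimum level) 0 were called, as were 0% of 12257 genes. At an unadjusted p under 0.05 there were 4 members (10%, against 6.05% of all genes), 2 in each direction. EdgeR called 0 genes, while DESeq2 called 0.179% of genes higher, among them 1 member (Smarcd3), and 0.0816% lower, with 0 members. The members' median log2 fold change was -0.10 against -0.03 over all genes.

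Smarcd3 encodes BAF60C, a BAF subunit known from heart and muscle development. It had 147, 111, 150 and 125 normalised reads in E8.5 KO cells and 50.1, 54.1 and 56.7 in WT cells. Every KO library was above every WT library, and the lowest KO value was far from the highest WT value. The log2 fold change was 1.29 ± 0.25 with a limma adjusted p of 0.534, an edgeR adjusted p of 0.629 and a DESeq2 adjusted p of 0.00241. The authors' deposited table of higher genes gives Smarcd3 a log2 fold change of 1.32 with an adjusted p of 0.00336. Within the only code number that both genotypes share among the libraries analysed, 169, KO4 had 125 and WT2 had 54.1. Leaving out KO1 and KO2, the libraries with the most erythroid RNA, gave a log2 fold change of 1.34. The KO libraries left in had summed erythroid levels of 14.4 (KO3) and 1091 (KO4), and the part of erythroid RNA was not tested. The library was not stranded, and 48.2% of the exon bases of Smarcd3 (chromosome 5, 24590818 to 24624411, minus strand) are also exon bases of Chpf2 on the other strand, so reads there cannot be told apart. The value counted to Chpf2 was 54.9, 48.9, 67.3 and 24.3 in KO cells and 44.7, 36.9 and 56.7 in WT cells, and those groups overlapped, with a log2 fold change of 0.02 ± 0.39.

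The next members in order of p at E8.5 differed less. Arid1a, the DNA-binding subunit of canonical BAF, had 234, 231, 314 and 337 normalised reads in KO cells and 492, 466 and 417 in WT cells, with every KO library below every WT library. Its log2 fold change was -0.73 ± 0.22 and its limma adjusted p 0.805. Baz1a, the ACF partner of Smarca5, had 605, 607, 382 and 493 in KO cells and 308, 380 and 286 in WT cells, a log2 fold change of 0.67 ± 0.23 with a limma adjusted p of 0.807. The KO and WT libraries of Baz1a were separated by KO3 at 382 and WT2 at 380. Smarcd1, the paralog of Smarcd3, had 736, 862, 688 and 1167 in KO cells and 1041, 1229 and 1631 in WT cells, or -0.60 ± 0.25. Chd4, the NuRD ATPase, had 593, 472, 569 and 837 in KO cells and 789, 1073 and 751 in WT cells, or -0.51 ± 0.24. In Smarcd1 and Chd4 KO4 overlapped the WT range. Ino80, the ATPase of the INO80 complex, had 29.8, 21.9, 30.1 and 39.4 in KO cells and 46.1, 56.5 and 38.1 in WT cells, or -0.63 ± 0.34, with KO4 above the lowest WT library. Smarcd3 and Baz1a were the 2 members with all KO libraries above WT (5%, against 3.71% of all genes), and Arid1a was the 1 member with all below (2.5%, against 2.82%).

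**Figure D2:**
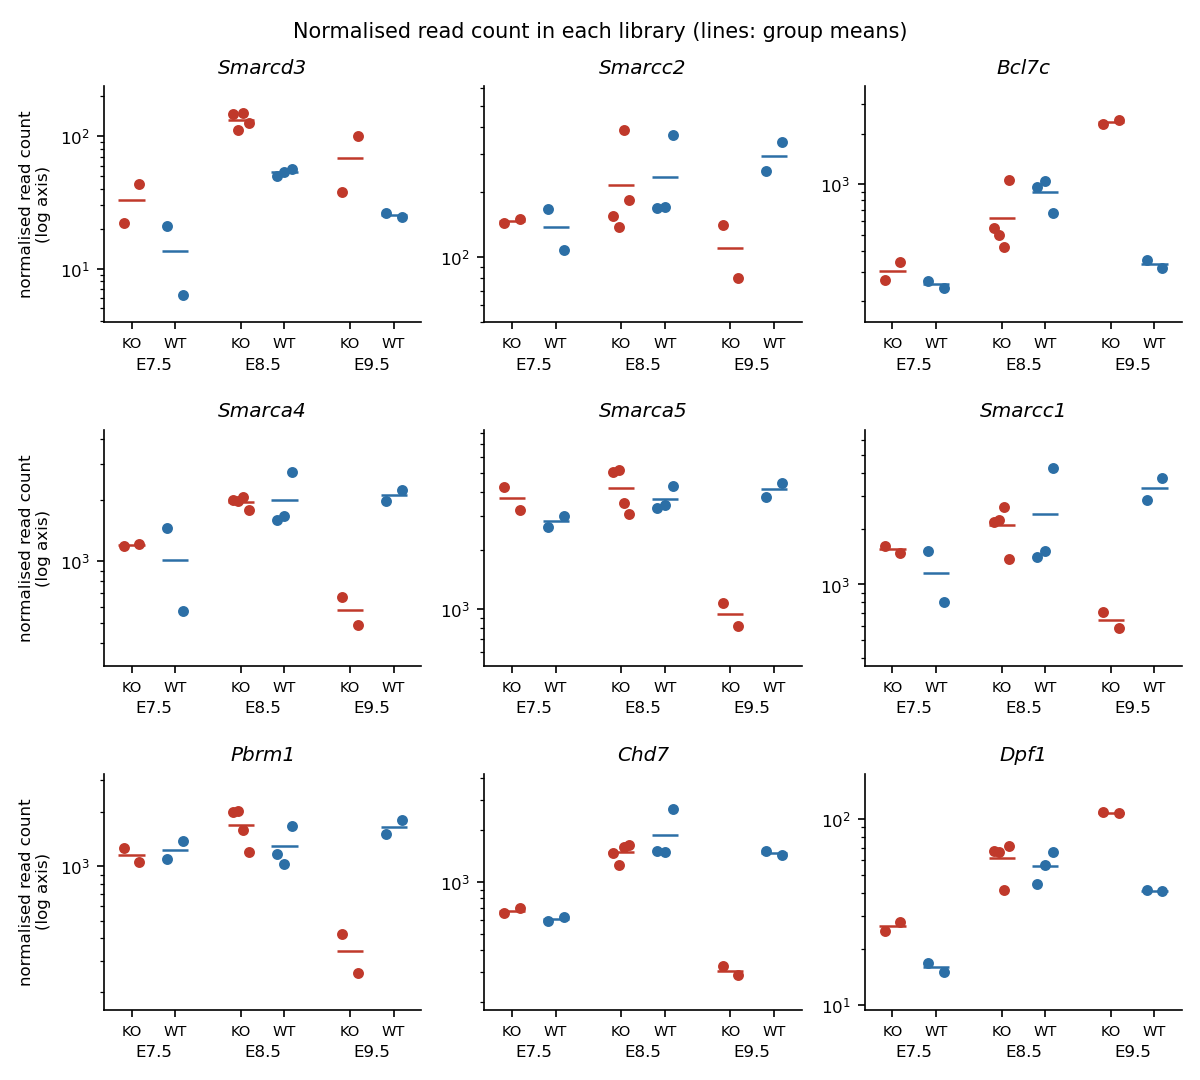
Normalised read count of 9 subunits in each library on log axes, KO left of WT at each stage, with lines at the group means. Smarcd3 is higher in KO at E8.5 (111 to 150 against 50.1 to 56.7), while Smarca4, Smarca5, Smarcc1, Pbrm1 and Chd7 are lower and Bcl7c higher in KO at E9.5.

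At E9.5, 16 subunits fell in KO cells, 8 of them ATPases, and 3 small subunits rose. With each library's trend over transcript length and GC content removed, as described below, 4 were called lower (10%, against 12.2% of all genes), of which Smarca5 was the 1 ATPase, and 1 higher (2.5%, against 11%). Of the 40 members tested (the same pair was below the minimum level), limma called 19: 16 lower in KO cells (40%, against 23% of 12000 genes) and 3 higher (7.5%, against 24.5%). The share called in either direction, 47.5%, equalled the 47.5% of all genes. EdgeR called 15 members lower (37.5%, against 21% of genes) and 3 higher (7.5%, against 24.6%), and DESeq2 called 18 lower (45%, against 22.7%) and 4 higher (10%, against 26.2%). The groups did not overlap, with KO lower, for 25 members (62.5%, against 41.7% of all genes), and with KO higher for 7 (17.5%, against 38.6%). The median log2 fold change was -1.05, against -0.14 over all genes. With values rescaled to equal total reads, the split was 30 lower (75%, against 42.4% of all genes) and 1 higher (2.5%, against 13.5%), and that scaling moved the median of all genes to -1.01 and that of the members to -1.94. With WT1 or WT2 left out, 7 members were called (17.5%, against 16.8% and 16% of all genes), Bcl7c, Smarca4, Smarcc1, Pbrm1, Smarca5, Chd1 and Chd7 each time. Without KO1 30 were called (75%, against 73.5%) and without KO2 25 (62.5%, against 63.4%), so these counts lay near the share of all genes. Each of these fits holds 1 library in a group, which is assumed to vary like the other genotype, so they do not measure how firm the calls are. The KO libraries carry the code number 171 and the WT libraries 209, so code and genotype cannot be told apart here.

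In BAF at E9.5, the ATPase Smarca4 had 667 and 490 normalised reads in KO cells and 1984 and 2242 in WT cells, a log2 fold change of -1.88 ± 0.22 with a limma adjusted p of 0.00279. The alternative ATPase Smarca2 had 169 and 427 in KO cells and 352 and 361 in WT cells and was not called (adjusted p 0.492). Smarcc1 (BAF155), a scaffold subunit, had 708 and 581 in KO cells against 2845 and 3749 in WT cells, or -2.35 ± 0.21 with a limma adjusted p of 0.00145. Its paralog Smarcc2 had 140 and 79.9 in KO cells against 249 and 339 in WT cells, or -1.45 ± 0.40 with an adjusted p of 0.0322. In Smarca4, Smarcc1 and Smarcc2 no KO library reached the WT range. Pbrm1, the bromodomain subunit that defines PBAF, had 422 and 255 in KO cells against 1503 and 1803 in WT cells (-2.32 ± 0.29, limma adjusted p 0.00359). Arid1a had 141 and 45.9 in KO cells against 288 and 398 in WT cells (-2.05 ± 0.58, adjusted p 0.0362). Smarcd1 (-1.0) and Ss18 (-1.38) were also called lower. Arid2, the DNA-binding subunit of PBAF, was not called, with 210 and 20.4 in KO cells against 350 and 594 in WT cells, a log2 fold change of -2.77 ± 1.07 and a limma adjusted p of 0.0838.

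The 3 members that rose in E9.5 KO cells were small BAF subunits. Bcl7c had 2291 and 2406 normalised reads in KO cells against 351 and 318 in WT cells, a log2 fold change of 2.81 ± 0.17 with a limma adjusted p of 0.000649. Bcl7b had 362 and 609 in KO cells against 230 and 203 in WT cells (1.11 ± 0.32, adjusted p 0.0386). Dpf1, the PHD-finger subunit of neuronal BAF, had 109 and 107 in KO cells against 41.5 and 40.9 in WT cells (1.37 ± 0.41, adjusted p 0.0420). The call of Bcl7c held with values rescaled to total reads, and those of Bcl7b and Dpf1 did not. With the trend over transcript length described below removed, Bcl7b had -0.05 and Dpf1 0.87, and neither was called. The remaining BCL7 gene, Bcl7a, had 70.7 and 221 in KO cells and 122 and 144 in WT cells and was not called. Smarcb1, Smarcd2, Smarce1, Actl6a, Dpf2, Phf10 and Brd9 lay between -0.10 and 0.60 and were not called by limma either. DESeq2 called Smarcb1 and Smarce1 higher, whereas Smarce1 was called lower with quantile normalisation. Actl6a, at 0.14, was called lower under other scalings (-0.79 with quantile normalisation and -0.75 with values rescaled to total reads).

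Among ISWI genes at E9.5, Smarca5 (SNF2H), the ATPase of most ISWI complexes, had 1072 and 813 normalised reads in KO cells against 3772 and 4439 in WT cells, a log2 fold change of -2.13 ± 0.20 with a limma adjusted p of 0.00167. Smarca1 (SNF2L), its X-linked paralog, had 10 and 0 reads in KO cells against 85 and 299 in WT cells, a fitted log2 fold change of -5.08 ± 1.29 (limma adjusted p 0.0261). With 0 reads in KO2 that fitted value depends on the amount added before the logarithm. Of the partner subunits, Baz1a (-1.55) and Baz1b (-2.10) were called lower (limma adjusted p 0.00919 and 0.0123). Baz1b, the WSTF subunit, had 269 and 126 in KO cells against 695 and 908 in WT cells. Baz2a of the nucleolar NoRC complex (-2.09) and Bptf of NURF (-1.27) were not called, with limma adjusted p of 0.0530 and 0.0576.

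All 8 CHD genes had a negative log2 fold change at E9.5, as did 52.7% of all genes, and 4 of them were called lower (50%, against 23%). Their longest transcripts all exceed 6 kb, and over all genes the median was -1.69 at 6 to 8 kb and -1.63 over 8 kb. Chd7 had 322 and 287 normalised reads in KO cells against 1509 and 1431 in WT cells (-2.27 ± 0.19, limma adjusted p 0.00117). Chd1, which binds methylated histone H3 at active genes, had 217 and 182 in KO cells against 727 and 1212 in WT cells (-2.23 ± 0.31, adjusted p 0.00467). Chd2 (-1.68) and Chd9 (-1.87) were the others called. Chd4 (-0.93), Chd8 (-0.83), Chd6 (-0.43) and Chd3 (-0.20) were not called, and these 4 had positive values (0.55, 0.77, 1.15 and 1.35) once that trend was removed. Of the INO80 family ATPases, Srcap had 52.8 and 32.3 in KO cells against 160 and 270 in WT cells (-2.30 ± 0.48, limma adjusted p 0.0143). Srcap shares 61.7% of its exon bases with a gene model on the same strand, Gm42715, for which no value was used here. Chd2 shares 18.4% of its exon bases with 1810026B05Rik, which had 707 and 979 in KO cells against 260 and 240 in WT cells, and Actl6a shares 11.6% with Mrpl47. Ep400 had 148 and 15.3 in KO cells against 265 and 334 in WT cells (-2.60 ± 1.03) and was not called, nor was Ino80 (0.34 ± 0.75), with 79.2 and 27.2 in KO cells and 25.3 and 53.0 in WT cells.

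Remodeller transcripts are long, and at E9.5 the fold change followed transcript length over all genes. The members' longest annotated transcripts ran from 1132 to 12036 bases with a median of 6017, against a median of 3079 for all genes tested. Spearman's rho between transcript length and log2 fold change was -0.67 over 11557 genes and -0.67 over the 40 members, given as a description because genes share the same 4 libraries. In genes under 2 kb the median log2 fold change was 1.53, and it was 1.11 in the 5 members of that size, which include Bcl7c and Bcl7b. Between 4 and 6 kb the medians were -1.46 for all genes and -1.41 for 6 members, and over 8 kb they were -1.63 and -1.96 (12 members). Between 6 and 8 kb the 9 members had a median of -1.88, against -1.69.

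The tilt was also described library by library. Each deviation is taken from the mean of the same libraries. Opposite signs in E9.5 KO and WT cells therefore follow in part from the slope of the fold change given above. Within a library, the rho between transcript length and the deviation from the stage mean was -0.499 and -0.611 in E9.5 KO cells and 0.631 and 0.692 in WT cells. The 21 longer members, of at least 6017 bases, had a median log2 deviation of -0.48 and -1.16 in KO cells and 0.78 and 1.09 in WT cells, whereas the shorter ones (21, fewer where not tested) had -0.19 and 0.28 in KO cells and -0.05 and 0.08 in WT cells. At E8.5 that rho ran from -0.436 (KO4) to 0.508 (KO3) in KO cells and from -0.467 (WT1_5s) to 0.523 (WT3) in WT cells, so both genotypes held libraries tilted either way. At E7.5 it was 0.217 and -0.123 in KO embryos and 0.260 and -0.206 in WT embryos.

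With each library's trend over transcript length and GC content removed, limma called 5 members at E9.5 in place of 19. Bcl7c was the 1 called higher (0.73, limma adjusted p 0.0257). The 4 called lower were Smarcc1 (-1.02, adjusted p 0.0136), Pbrm1 (-0.89, 0.0324), Smarca5 (-0.76, 0.0168) and Actl6a (-0.64, 0.0258), and Actl6a was not among the 19. The median of the members was then -0.37 and that of all genes -0.21. Smarca4 had -0.45 (adjusted p 0.165), Chd7 -0.54 (0.222), Srcap -0.55 (0.282) and Smarcc2 -0.38 (0.317) in that fit. Genotype and the length tilt go together over the 4 libraries, so a change of long genes with genotype and a tilt of the libraries cannot be told apart.

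**Figure D3:**
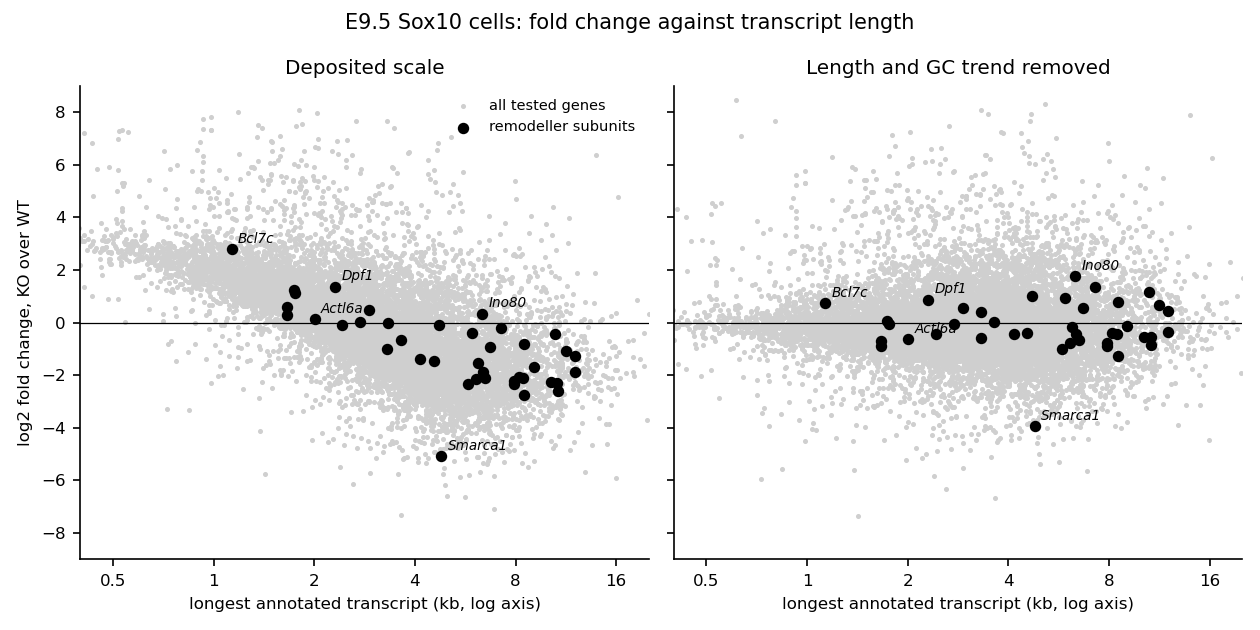
Log2 fold change (KO over WT) at E9.5 against the longest annotated transcript (kb, log axis) for all tested genes in grey and remodeller subunits in black, on the deposited scale (left) and with the trend over length and GC content removed (right). On the left both sets slope down with length (rho -0.67 each), and on the right the members' median is -0.37.

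**Figure D4:**
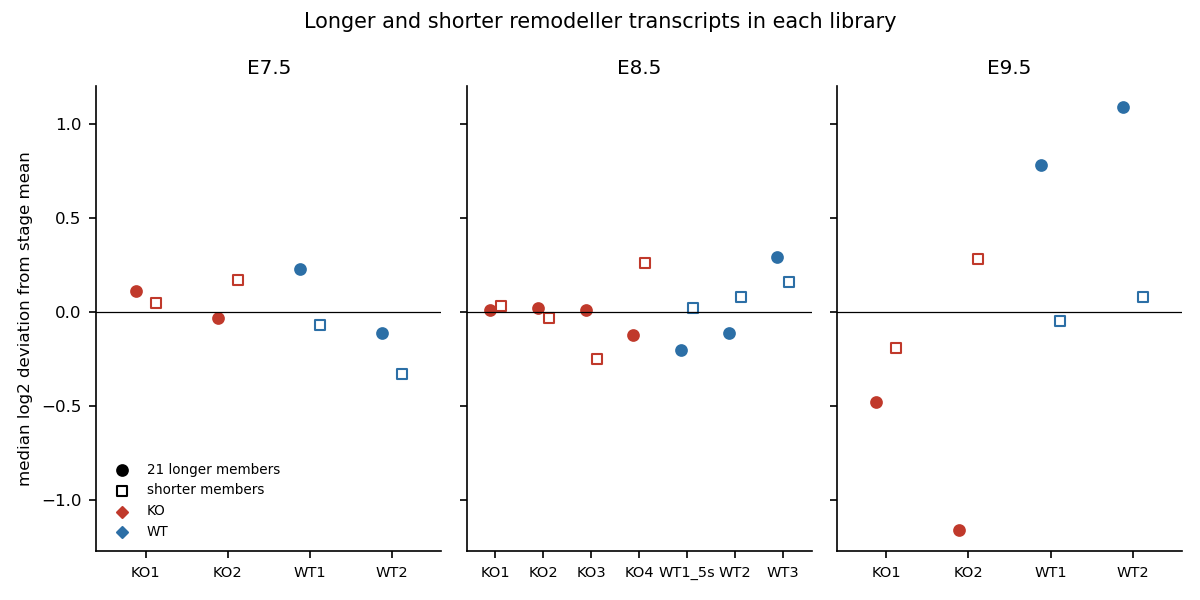
Median log2 deviation from the stage mean of the 21 longer members (circles) and the 21 shorter members (squares, fewer where a member was not tested) in each library, KO in red and WT in blue. At E9.5 the longer members are at -0.48 and -1.16 in KO cells and 0.78 and 1.09 in WT cells, while the shorter ones stay within 0.28 of 0.

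The 8 members with a miR-302 seed match were set beside the rest. At E7.5, the stage at which more than a single read over the miR-302a to miR-302d genes was counted in WT, their median log2 fold change was -0.17, against 0.21 for the 33 tested members without a match. At E8.5 it was -0.10 (8 members) against -0.11 (32 members), and at E9.5 -0.94 against -1.05. Of the 8, 0 were called higher in KO at any stage. Limma called 0% of all genes at E7.5 and E8.5, and 24.5% higher at E9.5. At E9.5, 3 of the 8 were called lower, as were 13 of the 32 without a match and 23% of all genes. Smarcc2, with the longest match, had 143 and 149 normalised reads in KO embryos and 166 and 108 in WT embryos at E7.5 (0.13 ± 0.35). It had 154, 138, 385 and 184 in KO cells and 168, 171 and 364 in WT cells at E8.5 (-0.15 ± 0.40), where the libraries KO3 and WT3 were high and the groups overlapped. Messenger RNA level alone was measured, and not protein.

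Smarcd3 was the only member whose KO libraries all lay above WT at every stage (1 of 40 members tested at all 3, against 0.194% of 10822 genes), and 0 members had all KO libraries below WT at every stage, against 0.157% of genes. Its values at E9.5 were 38.0 and 100 normalised reads in KO cells and 26.3 and 24.7 in WT cells, a log2 fold change of 1.25 ± 0.65 that was not called (limma adjusted p 0.167) and was 0.06 with the length and GC trend removed. Its E7.5 values were the 22.3 and 43.3 in KO embryos and 21.1 and 6.28 in WT embryos given above, where KO1 and WT1 lay close together. Chpf2, which shares exon bases with it, had 64.4 and 28.9 in KO cells and 86.1 and 78.7 in WT cells at E9.5.

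Exchange between paralogs was described as the log2 ratio of reads per kilobase of 2 related subunits in each library, for pairs with at least 10 reads each, without a test. At E7.5 (n = 2 each) 6 of 8 pairs did not overlap, by smaller differences. Among single genes at that stage, 28.7% did not overlap in either direction, and 39% of the members did not. No such share was worked out for ratios, and the pairs rest on the same 4 libraries, so their number was not tested. Bcl7c to Bcl7b was 1.14 ± 0.02 in KO embryos and 1.39 ± 0.16 in WT embryos, Smarca2 to Smarca4 -3.12 ± 0.22 in KO embryos and -2.68 ± 0.30 in WT embryos, and Smarcc2 to Smarcc1 -3.06 ± 0.12 in KO embryos and -2.70 ± 0.21 in WT embryos. Smarca1 to Smarca5 was also lower in KO embryos, while Arid1b to Arid1a and Dpf1 to Phf10 were higher. At E8.5 the ratio of Smarcd3 to Smarcd1, which occupy the same place in BAF, was -1.74 ± 0.49 in KO cells (SD, n = 4) and -3.65 ± 0.25 in WT cells (n = 3). The groups did not overlap, as was the case for 6.54% of single genes at that stage. At E9.5 that ratio was -1.98 ± 0.90 in KO cells and -4.26 ± 0.29 in WT cells (n = 2 each). The ratio of Chd3 to Chd4, alternative NuRD ATPases, was -2.20 ± 0.13 in KO cells and -2.85 ± 0.23 in WT cells at E8.5, again without overlap. At E9.5 Bcl7c to Bcl7b stood at 2.96 ± 0.48 in KO cells and 1.27 ± 0.02 in WT cells, and Dpf1 to Phf10, the neuronal and progenitor PHD-finger subunits, at -3.27 ± 0.25 in KO cells and -4.38 ± 0.01 in WT cells. Smarca2 to Smarca4 was -0.98 ± 1.27 in KO cells and -2.46 ± 0.10 in WT cells at E9.5, with KO1 at -1.88 and KO2 at -0.09, and Smarcc2 to Smarcc1 was -2.26 ± 0.37 in KO cells and -3.15 ± 0.03 in WT cells. The KO ratios Bcl7c to Bcl7b, Smarca2 to Smarca4 and Smarcc2 to Smarcc1 lay below WT at E7.5 and above WT at E9.5. In the E9.5 libraries 80.3% of single genes did not overlap. Whether these ratios differed between stages was not tested. At E8.5 the ratios Smarca2 to Smarca4, Smarca1 to Smarca5, Smarcc2 to Smarcc1, Arid1b to Arid1a, Dpf1 to Phf10 and Bcl7c to Bcl7b overlapped between KO and WT. Paralogs of unequal transcript length share in the length tilt of their library.

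**Figure D5:**
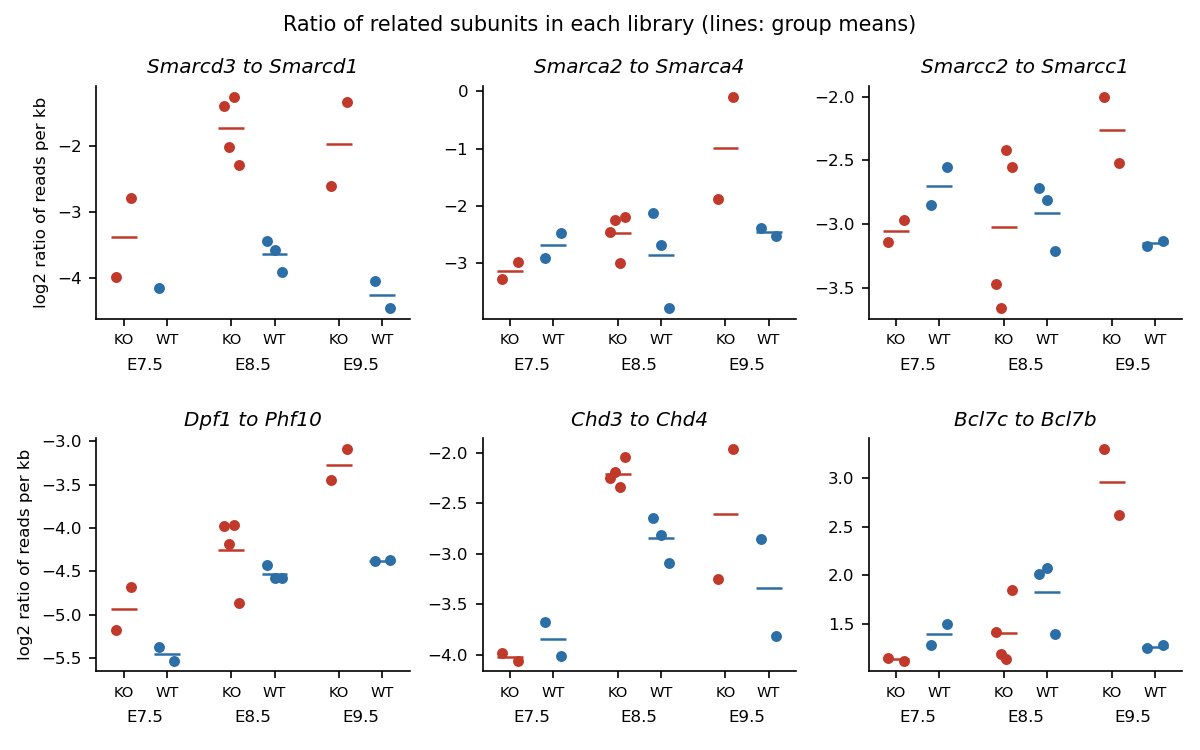
Log2 ratio of reads per kilobase of 6 pairs of related subunits in each library, KO left of WT at each stage, with lines at the means of groups with at least 2 values. Smarcd3 to Smarcd1 is higher in KO at E8.5 (-2.29 to -1.26 against -3.92 to -3.44), and the E7.5 WT2 library is left out of that pair because Smarcd3 had 5 reads.

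Further subunits of such complexes and other SNF2-like remodellers, 62 genes of a separate list, are given for comparison. At E9.5, 59 were tested, 12 were called higher in KO cells (20.3%, against 24.5% of all genes) and 16 lower (27.1%, against 23%), with a median log2 fold change of -0.25. Both shares lay near those of all genes. The 4 with the smallest p were Cdk2ap1, a small NuRD subunit, with 22827 and 23950 normalised reads in KO cells against 6722 and 5801 in WT cells (1.90, limma adjusted p 0.000840), and Atrx, Chrac1 and Mbd3. Atrx, an SNF2-type ATPase that loads histone H3.3, had 248 and 255 in KO cells against 1217 and 1309 in WT cells (-2.32, limma adjusted p 0.00115). Chrac1, a histone-fold partner of ISWI, had 1671 and 1943 in KO cells against 386 and 325 in WT cells, and Mbd3 of NuRD had 7621 and 7691 in KO cells against 2904 and 2616 in WT cells. By class, all 7 other SNF2-like ATPases tested had negative values, as did 52.7% of all genes, and 4 were called lower (57.1%). The subunits of SRCAP and TIP60 complexes gave 4 called higher (25%) and 2 lower (12.5%) of 16. Those of INO80 gave 4 higher (30.8%) and 1 lower (7.69%) of 13. Over all genes the shares were 24.5% higher and 23% lower. The part of transcript length in these class counts was not tested. With the length and GC trend removed, Chrac1 had -0.02, Cdk2ap1 0.18, Mbd3 0.17 and Atrx -0.83. At E7.5 and E8.5 none of the 61 and 59 tested was called, with medians of 0.02 and 0.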

How the data were processed

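RNA-seq was made from whole E7.5 embryos or sorted E8.5 and E9.5 cells with SMART-Seq v4 (primed on poly(A), unstranded) and Nextera XT, per the labels' protocols. FastQC 0.11.5, STAR 2.7.0f and the build mm10 are named in the submitters' processing notes. How reads were counted and normalised is not given in the sources used here. For each stage the authors deposited a table of normalised signal: gene counts divided by 1 factor per library. Whole reads were recovered from its steps (100% of values within 0.01 of a read), which gave the depths, 4912827 to 14861728 reads. A count of 0 allows up to 3 reads, 0.202 to 0.611 RPM, covering counting error only. The authors also deposited tables of selected genes with the mean signal, the log2 fold change, a test score and p-values, per the file headers. In the E7.5 table of higher genes, 1.38% of the means were within 5% of those of the signal table, against 100% at the later stages. Only counts of listed genes were therefore taken from that E7.5 table.

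Groups came from the sample titles. Each stage was normalised separately and tested alone. Log2(value + 1) of genes with a mean of at least 10 was tested by limma 3.58.1 (trended, two-sided, R 4.3.3), KO against WT, with Benjamini-Hochberg adjustment over all tested genes at 0.05. EdgeR 4.0.16 and DESeq2 1.42.0, run on the recovered reads, were alternatives, with other pseudocounts, minimum levels and scalings, libraries left out, and a loess fit of span 0.3 on transcript length and GC content subtracted. The limma step was tested on simulated counts that varied independently and held no length tilt. That test does not cover the tilt of the E9.5 libraries. Lengths and 3′ regions came from GENCODE M21 (GRCm38), which matched 23334 of 24421 symbols. No 2 replicates agreed within sampling noise (chi-square per gene 9.26 to 106). The members, the other lists and the comparisons were chosen with earlier results of these data known. All members could be named. Those given in full per stage were the 6 with the smallest p and the 2 with the largest fold change in each direction, beside fixed paralog pairs and members with a seed match. The overlaps of exons were looked up, and the other members named, after their values were seen.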

Additional observations from a re-analysis of the deposited data

Results flagged for a closer look

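Dpf2, a PHD-finger subunit of canonical BAF, had 1643 normalised reads in E8.5 KO3, far from the other 3 KO libraries, which lay between 1325 and 1373. The gap was 0.85 of the group's range. The check covers groups of at least 4 libraries, here the E8.5 KO group alone, in which 1 of 42 members was set apart, and chance alone sets apart about 1 group in 20.

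For 6 members the KO libraries all lay above WT at an earlier stage and all below WT at E9.5, a difference between stages that was not tested. That is 15% of the 40 members tested at all 3 stages, against 9.11% of 10822 genes. The log2 fold change differed by 1.65 for Ss18 (0.27 at E7.5 and -1.38 at E9.5), 0.89 for Brd7 (0.21 and -0.68), 2.52 for Smarca5 (0.39 and -2.13), 2.43 for Baz1b (0.33 and -2.10) and 2.44 for Chd7 (0.17 and -2.27). For Baz1a the earlier stage was E8.5, and the difference was 2.22 (0.67 and -1.55). At E9.5 these values stand beside the trend of fold change with transcript length, whose part was not tested.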

How the results depend on the processing

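At E7.5 and E8.5, 0 members were called in every setting run, replicates left out included, except with DESeq2 (1) and with the replicate block at E8.5. The block called 4 (10%, against 5.53% of all genes), Smarcd3 higher and Arid1a, Bcl7c and Smarcd1 lower. At E8.5 Smarcd3 had an adjusted p of 0.00241 with DESeq2, 0.0295 with the block, and 0.199 to 1 in the others. The E7.5 median of 0.168 ran from -0.020 (without WT2) to 0.301 with a replicate left out. The E8.5 median of -0.101 ran from -0.134 to 0.020 (without WT3), and was 0.050 with scaling to total reads, which moved that of all genes to 0.123. At E9.5 the count of 19 (47.5%, as of all genes) became 31 with scaling to total reads (chosen after seeing the data; 77.5%, against 55.9%) and 5 after subtracting the length and GC trend (12.5%, against 23.2%). It was 30 without KO1, 25 without KO2, and 7 without WT1 or without WT2, each near the share of all genes given above. These 7 were all among the 19, and both times 12 calls were lost, Arid1a, Smarcc2 and Smarca1 among them. No minimum level gave 13 (31%, against 29.2%), edgeR 18 (45%, against 45.6%), DESeq2 22 (55%, against 48.9%) and the replicate block 22 (55%, against 47.7%). The E9.5 median of -1.050 became -0.782 with quantile normalisation, -1.936 with scaling to total reads and -0.366 with the trend removed, and ran from -1.431 (without KO1) to -0.780 (without WT2). Among the called members only Bcl7b changed sign in the settings run (-0.045 with the trend removed). Members that were not called changed sign as follows. At E9.5 with the trend removed, Chd3 had 1.353, Chd6 1.145, Bcl7a 1.005, Smarca2 0.946, Chd8 0.765, Chd4 0.553, Bptf 0.435 and Actl6a -0.637. With quantile normalisation Chd3 had 0.191, Chd6 0.043, Bcl7a 0.377 and Actl6a -0.793 (adjusted p 0.00527). With scaling to total reads Ino80 had -0.531 and Actl6a -0.752 (adjusted p 0.0133), and Bcl7a had 0.101 with edgeR and 0.168 with DESeq2. With a replicate left out, Ino80 ran from -0.418 (without KO1) to 1.089, Actl6a from -0.119 (without KO2) to 0.396, Smarca2 from -1.075 to 0.257 (without KO1) and Bcl7a from -0.893 to 0.737 (without KO1). Smarcc2 had -0.012 at E7.5 with the trend removed and ran there from -0.181 (without WT2) to 0.432. At E8.5 it had 0.004 with scaling to total reads and 0.284 without KO1 and KO2, and ran from -0.466 to 0.220 (without WT3). Smarce1, not called in the main fit at E9.5, was called higher with DESeq2 and lower with quantile normalisation, and Smarcb1 was called higher with DESeq2. Other members were not followed gene by gene across settings. Replicate numbers were not shown to pair the samples. The correlation of same-numbered deviations was -0.116 at E7.5, -0.171 at E9.5, and 0.076, -0.025 and 0.554 at E8.5. At E7.5 and E9.5 it cannot settle pairing, because the deviations of 2 libraries from their mean mirror each other. A fit with KO4_5s was not run. The causes of these shifts were not tested.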
